A study of Brassica rapa subsp. pekinensis with 6 samples.

Results

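Expansins, xyloglucan endotransglucosylase/hydrolases (XTHs) and cellulose synthases were examined in leaf messenger RNA of Chinese cabbage (Brassica rapa subsp. pekinensis). The members were all rows of the authors' deposited table whose best protein description contains the word expansin, xyloglucan endotransglucosylase or cellulose synthase. This gave 45 genes of 13225 listed, made up of 14 expansins, 17 XTHs and 14 cellulose synthases or cellulose synthase-like proteins. The table lists only genes that the authors called changed, at an adjusted p under 0.05, so the choice of members by name leaves out family genes that were not called. Family genes without a row were not analysed here.

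The study compared doubled haploid plants, which carry a haploid genome in duplicate, with autotetraploid plants, which carry 4 copies of the genome of a single line. Both kinds came from the doubled haploid line 'FT' and were grown under the same conditions. Mature main-stem leaves below the first branch were taken at bolting, and each group had 3 libraries described as biological replicates. Whether a library stands for 1 plant or a pool was not stated. The controls were thus plants of the same line at the lower ploidy, and every plant of the study traces back to 1 line.

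A growing plant cell is held by a wall of cellulose microfibrils tied together by xyloglucan and other polysaccharides. Cellulose synthase (CESA) complexes in the plasma membrane spin the microfibrils, and some cellulose synthase-like (CSL) families make backbones of other wall polysaccharides. XTHs cut xyloglucan chains and join them to other chains, or to water, and expansins loosen the wall without cutting it. In leaves these genes are known mostly from cell expansion, and single family members are also known from responses to touch, hormones and stress. The Brassica rapa genome descends from a triplicated ancestor, so an Arabidopsis gene can have several counterparts.

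Values are the authors' means of normalised read counts, 1 per group. A log2 fold change is autotetraploid over doubled haploid, and a change given as fold is the higher mean over the lower. Counts were not divided by gene length, so levels of different genes are not compared. Normalisation makes higher and lower relative to the other genes, and in whole leaves fewer cells of a type and less RNA per cell cannot be told apart. For genes with few reads the count of each library could be worked back from the group mean, as a normalised read count per library. This gave all 6 library values for 24 members, and the 3 doubled haploid values alone for 7 more. The recovered libraries carry no replicate number. All listed genes were chosen by the authors' test on these same libraries. Groups without overlap and limma adjusted p-values are thus given below as description of single genes, not as further support. Of all 3428 recovered genes, 99.2% had no overlap and limma called every gene. Size factors were between 0.917 and 1.12 over all 6 libraries. Sequencing depth in total reads was not given.

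In autotetraploid leaves 18 of the 45 members were higher and 27 were lower. The authors' test called 37.8% of 34980 genes, 18.9% in each direction. Among all listed genes 50.0% were higher and 50.0% lower. Of the 14 expansins, 9 rose and 5 fell, with a median log2 fold change of 1.25. Of the 17 XTHs, 4 rose and 13 fell, with a median of -1.52. Of the 14 cellulose synthases and relatives, 5 rose and 9 fell, with a median of -0.63. The median over all listed genes was 0.16. These counts hold only genes that were already called, and no test was made over a family.

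Large changes were common among the members. A change of at least 2-fold was present in 32 members, with 12 higher and 20 lower. Among all listed genes, 16.6% were higher and 23.0% lower by this much. The rises of at least 2-fold were in 8 expansins, 2 XTHs and 2 cellulose synthase genes. The falls were in 3 expansins, 11 XTHs and 6 genes of the cellulose synthase group.

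**Figure D1:**
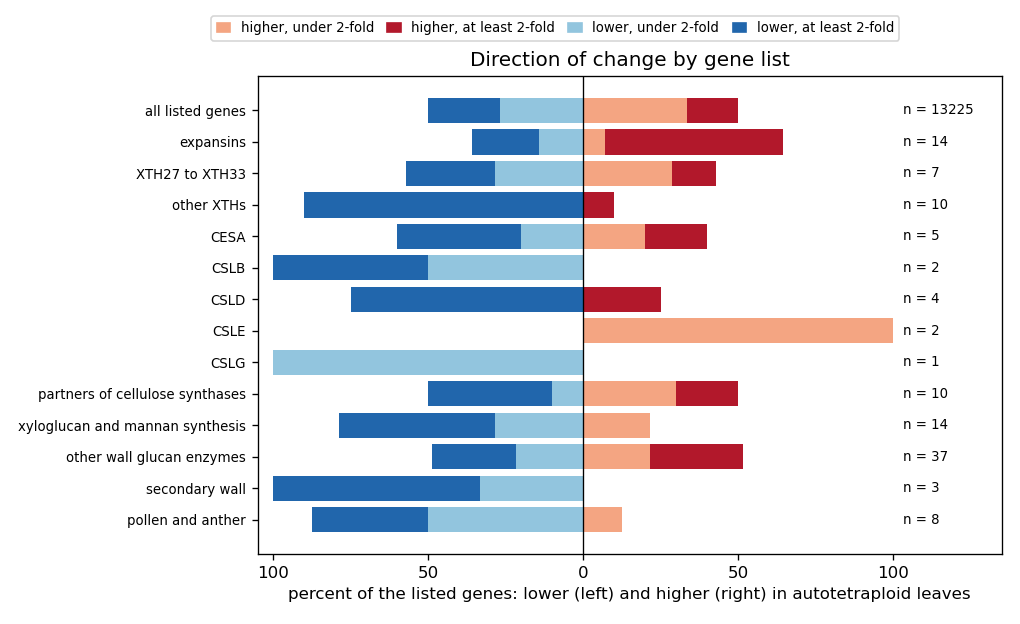
Bars give the percentage of listed genes that were lower (left, blue) or higher (right, red) in autotetraploid leaves for each gene list, with darker parts for changes of at least 2-fold and the number of genes beside each bar. Of the 14 expansins 9 lie on the higher side, and of the 10 other XTHs only 1 does. These 10 are the XTHs not numbered 27 to 33 and include a gene whose hit carries no number. All listed genes are split evenly.

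The XTHs with the largest falls were those described as XTH18, XTH22 and XTH23. Their descriptions came from predicted Brassica rapa proteins and not from an Arabidopsis hit, as for 6 members in all, each an XTH. The gene Novel00014, described as a probable XTH18, had recovered values of 0, 0 and 2.16 in the autotetraploid libraries. Its values in the doubled haploid libraries were 476, 491 and 532. A total of 2 reads thus stood against 1550, and the groups did not overlap. The authors' means were 0.720 and 499.6, a ratio of 694.0-fold with an exact 95% counting interval of 192 to 5736. A second gene with the same description, Novel00459, fell from 1472 to 27.8 as the authors' means, which is 53.0-fold. Its autotetraploid libraries had 27.7, 36.3 and 19.4. Whether these genes share reads was not examined, since gene sequences were not used here.

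The gene Novel01433, described as XTH22, fell from 17404 to 720 as the authors' means, a log2 fold change of -4.59 in the authors' deposited table. XTH22 is known in Arabidopsis as TCH4, a gene induced by touch. The gene Novel00095, a probable XTH23, fell from 3647 to 392, with a log2 fold change of -3.22 in the authors' deposited table. For Novel00459, Novel01433 and Novel00095 the authors deposited an adjusted p of 0. The gene Novel00015, described as XTH24, fell from 9689 to 3371 as the authors' means, 2.87-fold, with an adjusted p of 4.17e-122 in the authors' deposited table.

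Several XTHs with few reads were lower as well. The XTH9 gene (evm.TU.BraA09001452) had 1.98, 7.06 and 4.32 in the autotetraploid libraries and 26.0, 24.96 and 25.1 in the doubled haploid ones. No autotetraploid library reached the lowest doubled haploid library, and the limma log2 fold change was -2.39 (SE 0.40, adjusted p = 0.000182). For XTH11 (evm.TU.BraA01002051) the autotetraploid libraries had 8.89, 17.1 and 16.2, and the doubled haploid libraries had 37.6, 37.0 and 46.9. Its groups did not overlap (limma log2 fold change -1.50, SE 0.30, adjusted p = 0.000539). XTH7 (evm.TU.BraA03006540) had 3.95, 11.1 and 6.48 against 14.3, 19.4 and 21.8, and the highest autotetraploid library lay near the lowest doubled haploid one. A gene matching an XTH of Brassica oleracea (evm.TU.BraA03004476) had 5.93, 2.02 and 0 against 8.07, 12.9 and 13.1, also without overlap.

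The XTHs numbered 27 to 33 form a branch of their own in the Arabidopsis family, and they were split by direction. Of 7 such genes 3 rose and 4 fell, with a median log2 fold change of -0.56. Of the other 10 XTHs 1 rose and 9 fell, all of them at least 2-fold, with a median of -2.31. These 10 include evm.TU.BraA03004476, which fell and whose hit carries no XTH number, so its branch is not known. The grouping was made after the values were seen, and the difference between the branches was not tested. XTH33 (evm.TU.BraA08003849) had 24.7, 31.3 and 35.6 in the autotetraploid libraries and 168, 193 and 182 in the doubled haploid ones. The groups were far apart, with a limma log2 fold change of -2.54 (SE 0.16, adjusted p = 7.59e-08). XTH27 (evm.TU.BraA02003377) and XTH28 (evm.TU.BraA09000773) fell by less, from 5358 to 3637 and from 1973 to 1087 as the authors' means.

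A pair of genes with XTH30 as best hit moved in opposite directions. The copy evm.TU.BraA08000116 had 28.6, 31.3 and 32.4 in autotetraploid and 152, 159 and 173 in doubled haploid libraries, and it fell with a limma log2 fold change of -2.36 (SE 0.14, adjusted p = 4.18e-08). The copy evm.TU.BraA05001688 rose 1.75-fold, from 119 to 209 as the authors' means, with an adjusted p of 2.94e-06 in the authors' deposited table. Its doubled haploid libraries had 140, 109 and 109. The other rises were XTH16 (Novel00978), XTH29 and XTH31. XTH16 had 9.88, 17.1 and 20.5 in autotetraploid libraries and 1.79, 2.77 and 4.36 in doubled haploid ones, with no overlap and a ratio of the authors' means of 5.33-fold. XTH29 (evm.TU.BraA01001125) had 28.6, 28.2 and 26.99 against 8.96, 5.55 and 19.6, so 1 doubled haploid library stood nearer to the autotetraploid ones. XTH31 (evm.TU.BraA06000517) rose 1.32-fold, from 266 to 351 as the authors' means.

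**Figure D2:**
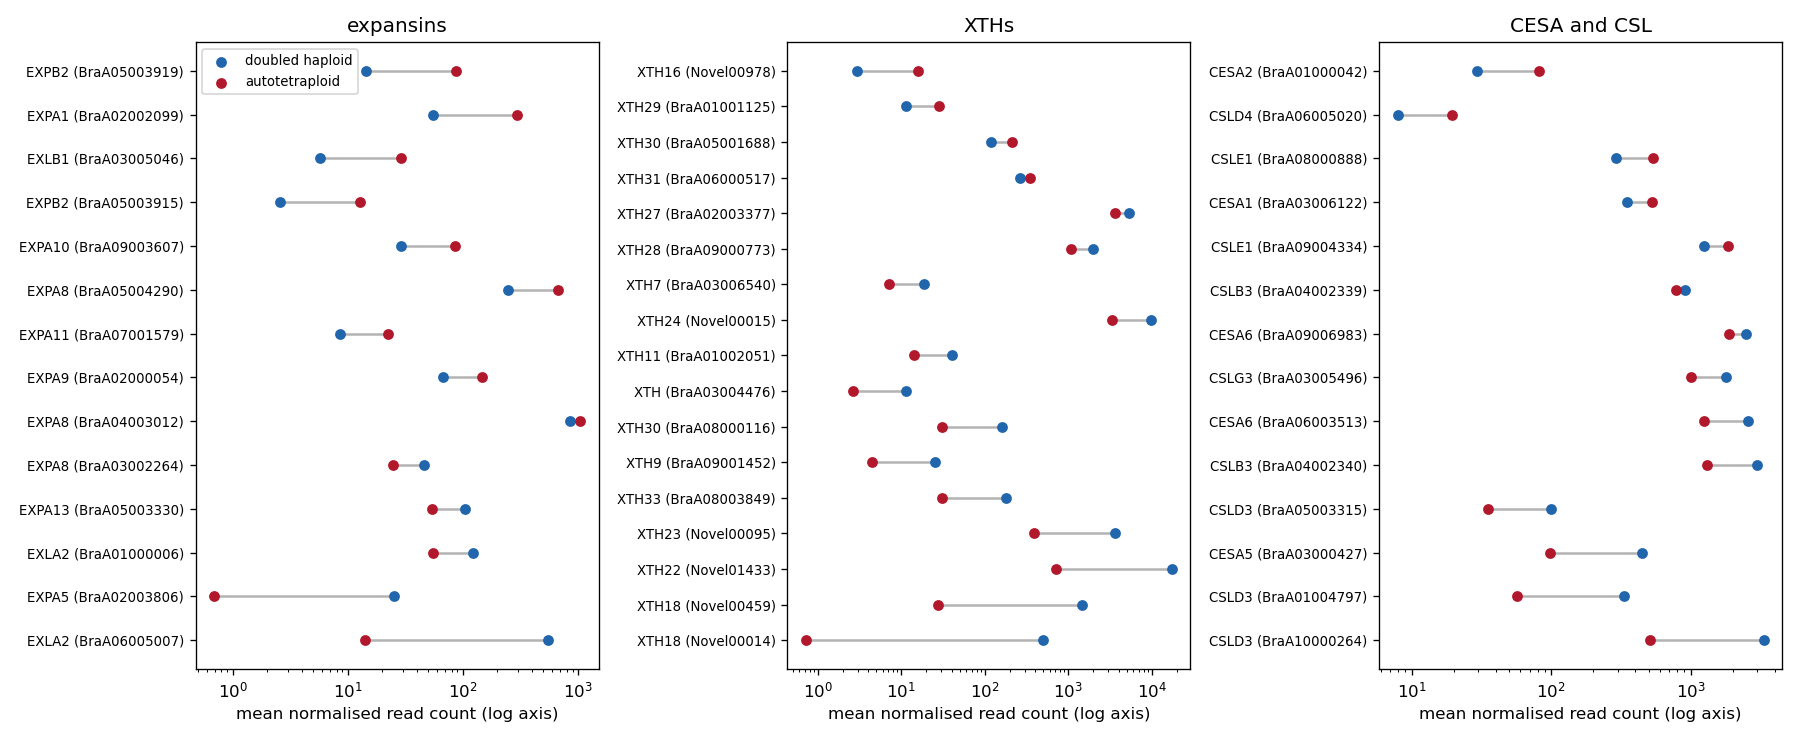
Each line joins the authors' mean normalised read count of a member in doubled haploid (blue) and autotetraploid (red) leaves, on a log axis, with members of each family ordered by fold change. The longest line is that of Novel00014, from 499.6 to 0.720; among the XTHs 13 red points lie left of the blue ones and 4 right.

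Among the expansins the alpha-expansins, the family in which wall loosening was first described, rose in 6 of 9 cases and fell in 3. EXPA1 (evm.TU.BraA02002099), known in Arabidopsis from guard cells, rose from 55.4 to 297 as the authors' means, 5.36-fold, with an adjusted p of 9.22e-19 in the authors' deposited table. Its doubled haploid libraries had 60.9, 58.2 and 46.9. EXPA10 (evm.TU.BraA09003607), known in Arabidopsis from leaf growth, had 85.9, 89.7 and 79.9 in autotetraploid libraries. Its doubled haploid libraries had 20.6, 34.2 and 31.6. All autotetraploid libraries were above all doubled haploid ones, and the limma log2 fold change was 1.56 (SE 0.20, adjusted p = 3.02e-05).

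EXPA11 (evm.TU.BraA07001579) had 25.7, 23.2 and 18.4 against 10.8, 7.40 and 7.63, without overlap, and its means differed 2.61-fold. EXPA9 (evm.TU.BraA02000054) rose from 66.7 to 146 as the authors' means, 2.18-fold. The falls were in EXPA5, EXPA13 and 1 copy of EXPA8. EXPA5 (evm.TU.BraA02003806) was close to absent from autotetraploid leaves, at 0.988, 0 and 1.08, against 16.1, 26.8 and 32.7 in doubled haploid libraries. Its reads were 2 against 77, and the authors' means differed 36.6-fold, with an exact 95% counting interval of 9.79 to 307. EXPA13 (evm.TU.BraA05003330) had 39.5, 57.5 and 63.7 against 88.7, 105 and 118, a fall of 1.94-fold without overlap.

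The EXPA8 hit was shared by 3 genes that did not move together. The copy evm.TU.BraA05004290 rose 2.67-fold, from 249.8 to 667 as the authors' means, and evm.TU.BraA04003012 rose 1.23-fold, from 853 to 1049. The copy evm.TU.BraA03002264 fell, with 25.7, 21.2 and 26.99 in autotetraploid and 42.1, 47.2 and 49.0 in doubled haploid libraries. The groups of that copy did not overlap (limma log2 fold change -0.88, SE 0.21, adjusted p = 0.00160). The smaller rise had an adjusted p of 0.00167 in the authors' deposited table.

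Both beta-expansin genes, with putative EXPB2 as best hit, rose. The copy evm.TU.BraA05003919 had 101, 68.6 and 93.9 in autotetraploid and 17.9, 10.2 and 15.3 in doubled haploid libraries. The groups were well apart, and the limma log2 fold change was 2.54 (SE 0.25, adjusted p = 3.40e-06). The copy evm.TU.BraA05003915, close to it in identifier number, had 10.9, 12.1 and 15.1 against 1.79, 3.70 and 2.18. The expansin-like B1 gene (evm.TU.BraA03005046) rose as well, with 35.6, 22.2 and 30.2 against 2.69, 9.25 and 5.45. None of these 3 genes had overlapping groups.

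Expansin-like A genes went the other way. The copy evm.TU.BraA06005007 of EXLA2 had 10.9, 11.1 and 20.5 in autotetraploid libraries and 524, 571 and 555 in doubled haploid ones. That is a 38.9-fold lower mean, with a limma log2 fold change of -5.24 (SE 0.21, adjusted p = 3.17e-09). The copy evm.TU.BraA01000006 fell 2.24-fold, with 40.5, 79.7 and 44.3 against 125, 126 and 118. In that copy 1 autotetraploid library stood above the other pair but below every doubled haploid library.

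**Figure D3:**
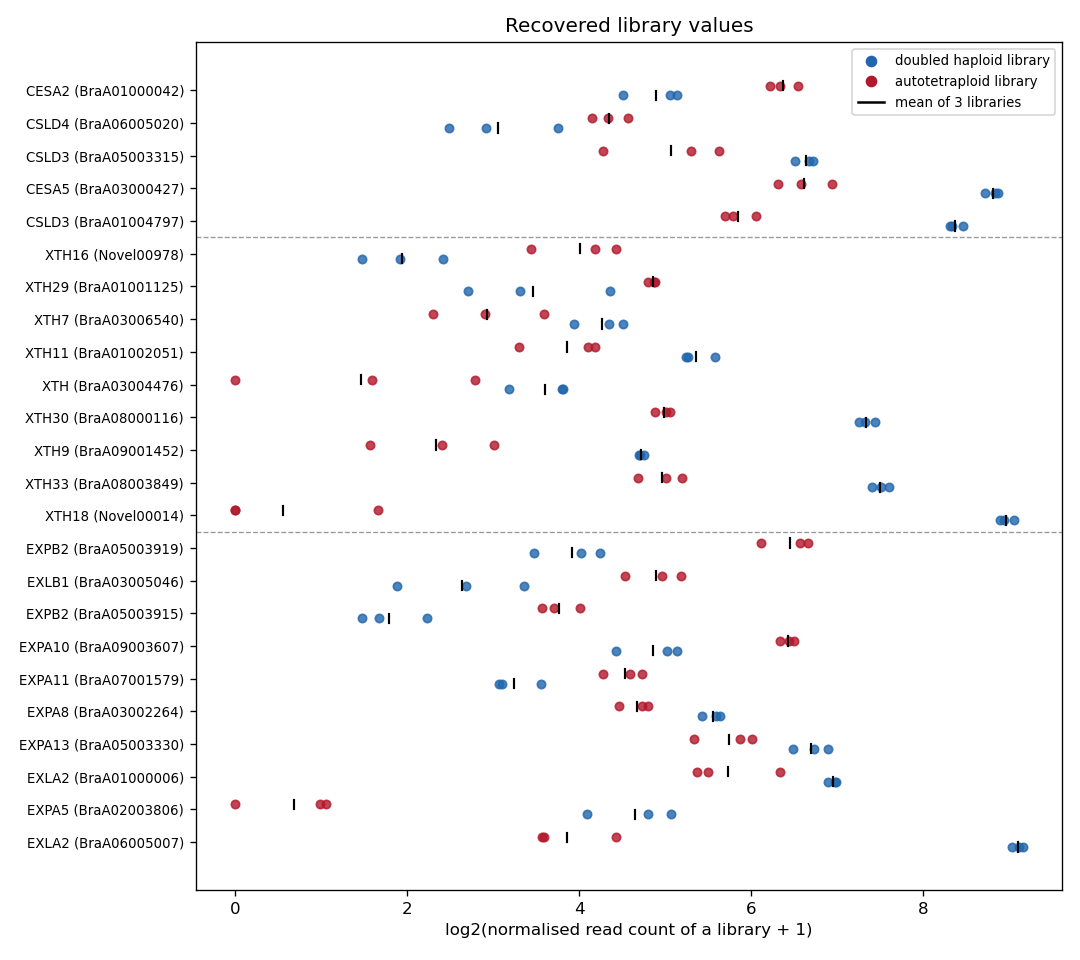
Points are the recovered values of single libraries for the 24 members recovered in both groups, as log2 of the normalised read count plus 1, with a black tick at the mean of 3 libraries; dashed lines part the families. Autotetraploid (red) and doubled haploid (blue) points do not overlap for any of the 24 members, and the widest gap is that of Novel00014. The same held for 99.2% of all 3428 recovered genes, so it is no trait of the members.

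The CESA genes listed all belong to the kinds that build primary walls in Arabidopsis, and 2 rose and 3 fell. CESA1 (evm.TU.BraA03006122), a core subunit of primary-wall complexes, rose 1.51-fold, from 351 to 529 as the authors' means. Its doubled haploid libraries had 351, 338 and 363. CESA2 (evm.TU.BraA01000042) had 92.9, 79.7 and 73.4 in autotetraploid and 32.3, 34.2 and 21.8 in doubled haploid libraries, and rose with a limma log2 fold change of 1.47 (SE 0.20, adjusted p = 4.57e-05). CESA2, CESA5 and CESA6 are known to take overlapping places in the complex, and the genes matching the latter pair fell.

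CESA5 (evm.TU.BraA03000427), known in Arabidopsis also from seed coat mucilage, had 94.8, 122 and 78.8 in autotetraploid libraries. Its doubled haploid libraries had 459, 423 and 467. The groups were far apart, and the limma log2 fold change was -2.20 (SE 0.14, adjusted p = 1.14e-07). The CESA6 gene evm.TU.BraA06003513 fell 2.06-fold, from 2575 to 1252 as the authors' means. The other CESA6 gene, evm.TU.BraA09006983, fell 1.33-fold, from 2489 to 1870. Genes matching the secondary-wall subunits CESA4, CESA7 and CESA8 were not among the genes analysed here.

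In the CSLD family, which is known from tip-growing cells, all 3 genes matching CSLD3 fell. CSLD3 is the Arabidopsis KOJAK gene, needed for root hairs. The copy evm.TU.BraA10000264 fell 6.57-fold, from 3330 to 507 as the authors' means, with an adjusted p of 1.70e-252 in the authors' deposited table. The copy evm.TU.BraA01004797 had 54.3, 65.5 and 50.7 in autotetraploid and 354, 318 and 323 in doubled haploid libraries (limma log2 fold change -2.53, SE 0.13, adjusted p = 1.07e-08). The copy evm.TU.BraA05003315 had 38.5, 48.4 and 18.4 against 101, 90.6 and 105. Neither of the latter pair had overlapping groups, and 1 autotetraploid library of the last was well below the others. CSLD4 (evm.TU.BraA06005020), known in Arabidopsis from pollen tubes, rose, with 16.8, 19.2 and 22.7 against 12.5, 4.62 and 6.54, and its adjusted p of 0.0482 in the authors' deposited table was near the limit.

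The remaining CSL genes changed less. Both CSLE1 genes rose, evm.TU.BraA08000888 1.84-fold, from 291 to 536, and evm.TU.BraA09004334 1.48-fold, from 1249 to 1848, as the authors' means. The CSLG3 gene (evm.TU.BraA03005496) fell 1.79-fold, from 1800.3 to 1004. A pair of CSLB3 genes with adjoining identifier numbers fell unequally. The copy evm.TU.BraA04002340 fell 2.29-fold, from 2986 to 1303 as the authors' means, and evm.TU.BraA04002339 fell 1.17-fold, from 914 to 781, with an adjusted p of 0.0271 in the authors' deposited table.

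The 45 members had 34 distinct hits, and 9 hits were shared by 20 members. In 7 of the 9 hits all copies moved in the same direction, and EXPA8 and XTH30 were the exceptions. Over all listed genes with a description, 2243 hits were shared and 68.8% of them had copies in a single direction, so the members' count is read as no more than a description. By chromosome code, read from the identifiers, A01 had 5 members, 2 higher and 3 lower, against 27.9% higher among all listed A01 genes. Copies with a near-identical sequence may have exchanged reads in counting, which was not examined.

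Library values did not overlap between groups for any of the 24 members recovered, and limma called 9 higher and 15 lower. Groups did not overlap for 99.2% of all 3428 recovered genes either, and limma called 32.3% of them higher and 67.7% lower, so that every recovered gene was called. That nearly all groups were apart and all genes called follows from the authors' selection, and the members did not stand apart from this background. The split by direction was not read, because the recovery limits are unequal and took in doubled haploid means under 600 but autotetraploid means only under 100. Each of the 24 members had an exact permutation p of 0.1, two-sided, which is the smallest that 3 libraries against 3 can give.

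The level of a gene bears on these counts, because a small change passed the authors' test only at high counts. Of the 12 members with a higher-group mean under 50, 6 rose and 6 fell, with a median change of 3.51-fold in size. All listed genes at that level had a median of 4.22-fold, and 41.5% of them rose. Of the 15 members between 50 and 500, 7 rose and 8 fell, against 48.3% rising among all listed genes. Of the 18 members with a mean of at least 500, 5 rose and 13 fell, against 53.6% rising among all listed genes at that level. In that range 8 members fell at least 2-fold, against 17.3% of all listed genes, and the median size was 1.94-fold against 1.53-fold for all listed genes.

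**Figure D4:**
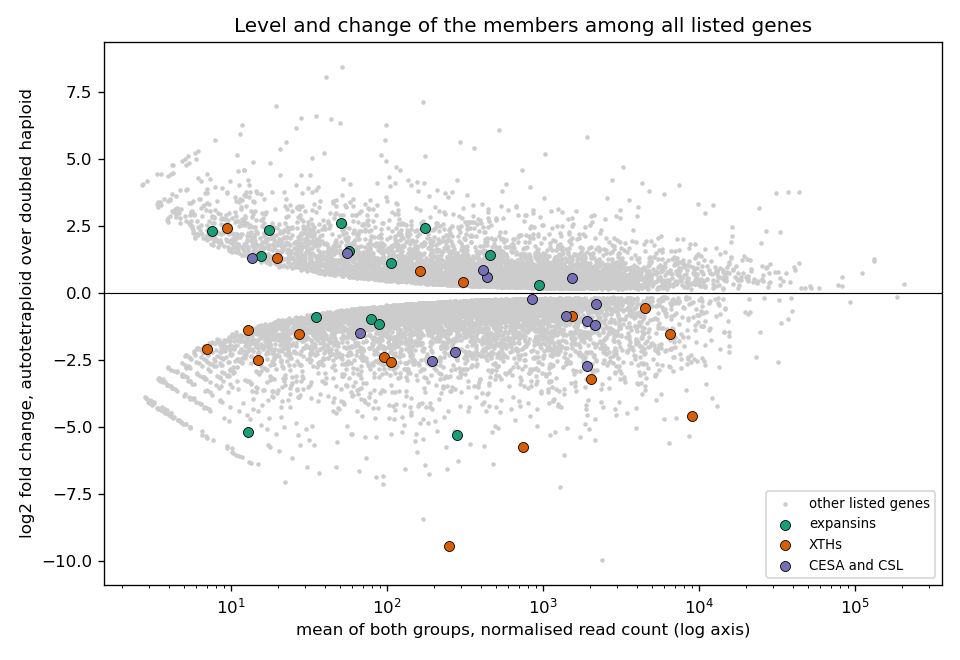
Points show the log2 fold change of autotetraploid over doubled haploid leaves against the mean of both groups on a log axis, for expansins (green), XTHs (orange), cellulose synthase genes (violet) and the other listed genes with a mean above 0 in both groups (grey). The empty band around 0 narrows as counts rise, and 13 of the 18 members with a higher-group mean of at least 500 lie below 0.

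Genes that build xyloglucan and mannan were mostly lower, 3 of 14 rising and 11 falling, with a median log2 fold change of -0.93. A pair of genes for xyloglucan 6-xylosyltransferase 1, which adds xylose side chains, fell from 2953 to 266 (evm.TU.BraA04000649) and from 1979 to 198 (evm.TU.BraA09002580) as the authors' means. A gene for KATAMARI1, which adds galactose (evm.TU.BraA07000158), fell 3.66-fold, from 1438 to 393. Other genes with that hit, also named after their values were seen, did not move together. The copy evm.TU.BraA06003777 fell 3.46-fold, and evm.TU.BraA01001739 rose 1.51-fold, from 180 to 272. Partners of cellulose synthases were evenly split, 5 rising and 5 falling, with a median of 0.02. Those with the smallest adjusted p were COBRA-like genes, with falls of 23.6-fold for COBRA-like 7 (evm.TU.BraA01003320), 18.8-fold for COBRA-like 8 (evm.TU.BraA01003927) and 7.55-fold for COBRA-like 2 (evm.TU.BraA06004089). The list also held rises of 7.89-fold for COBRA-like 5 (evm.TU.BraA03004669) and 1.63-fold for COBRA itself (evm.TU.BraA03004666), which were named after their values were seen.

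Other wall glucan enzymes, mainly beta-1,3-glucanases and endoglucanases, had 19 rises and 18 falls among 37 genes. The list was made by name, and which of these enzymes act on the plant's own wall was not examined. Those with the smallest adjusted p were glucan endo-1,3-beta-glucosidases, with rises of 17.2-fold (evm.TU.BraA04000358) and 16.3-fold (evm.TU.BraA04000359) and a fall of 5.45-fold (evm.TU.BraA03002650). The endoglucanase 25 hit, the KORRIGAN enzyme of cellulose synthesis, was counted in this list and among the partners, and its 2 genes went in opposite directions. The secondary wall list held only 3 genes, all lower. Both laccase-5 genes were listed at 0 in autotetraploid leaves, against 27.2 and 14.8 in doubled haploid leaves, and laccase-11 fell 1.80-fold, from 209.8 to 117. Lists were counted and not tested, and 50.0% of all listed genes were higher.

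Markers of leaf and other tissues also differed between the groups. The share to set beside their counts is the 50.0% higher among all listed genes. The 38 listed genes of Rubisco small chains, Rubisco activase and chlorophyll-binding proteins, which mark leaf blade, were 33 higher and 5 lower, and their levels summed to 1298165 in autotetraploid against 792669 in doubled haploid leaves. The 9 listed genes of SAG12 and STAY-GREEN, known from senescing leaves, were 4 higher and 5 lower, with sums of 2433 and 12032. A sum gives most weight to genes with many reads and need not follow the number of genes in each direction. Descriptions with pollen had 1 higher and 7 lower of 8 genes, with sums of 999 and 1872. Of the xylem and fibre markers, laccase-11 and COBRA-like 4 were listed, both lower, with sums of 140 and 267. The part of leaf stage or tissue make-up in the changes of wall genes was not tested.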

How the data were processed

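Messenger RNA of 6 leaf libraries was measured, 3 per group, with groups taken from the ploidy label. The submitters' processing notes name DESeq 1.18.0, HTSeq 0.6.1, TopHat2 2.0.12 and Bowtie2 2.2.3. No source used here names a genome build or annotation. The deposited signal columns carry headers of read counts, and each holds 1 normalised mean count of a group. The deposited log2 column equals the log2 ratio of these means within 5.00e-05 where both are above 0. Each deposited p-value comes from the authors' own test, and only genes with an adjusted value under 0.05 are listed. The ratio of adjusted p to p gave 34980 genes tested.

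The design called for limma on library values, or on reads recovered from the means. A mean is a sum of whole reads over size factors, so steps of 1 read gave the size factors. All 3385 autotetraploid and 3280 doubled haploid means above 0 and under 100 had exactly 1 solution. Reads were recovered for autotetraploid means under 100 and doubled haploid means under 600 where the solution was unique. Pairs of libraries of a group differed beyond sampling noise (chi-square per degree of freedom 1.58 to 1.80). limma 3.58.1 in R 4.3.3 was run with a mean-variance trend on log2 of the recovered value plus 1, over 3428 genes with Benjamini-Hochberg adjustment. A limma log2 fold change is on that scale and understates changes of low genes. Counting intervals are Clopper-Pearson at 95% and cover counting error only. Recovery was tested on simulated means under 100, so doubled haploid means from 100 to 600 lie outside that test. The limma fit was tested on simulated counts in which most genes were unchanged, unlike the recovered genes, which were all called.

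Members and lists were chosen with earlier results of these data known. Named were Novel00014, the largest changes of each subfamily, members with 3 reads or fewer in a group, copies of a hit that moved apart and, in each related list, up to 3 genes with the smallest adjusted p; the remaining members are named to complete the families. None of the members' identifiers matched the reference gene table, and no coordinates or sequences were used. Alternatives covered adjusted p limits, a minimum mean, 1 gene per hit, hits from Arabidopsis, a table without A01 genes, and pseudocounts, filters and left-out libraries for limma. Figures were drawn with matplotlib 3.10.9, and tables were handled in Python 3.11.15 with NumPy 2.4.6, pandas 2.3.3 and SciPy 1.17.1.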

Additional observations from a re-analysis of the deposited data

How the results depend on the processing

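Members listed were 18 higher and 27 lower. At an adjusted p limit of 0.001 they were 11 higher and 23 lower, and at a mean of at least 100 they were 9 higher and 20 lower. Expansins, 9 higher and 5 lower, had 4 higher and 3 lower at a mean of at least 100. With 1 gene per hit they had 7 higher and 3 lower. XTHs, 4 higher and 13 lower, had 1 higher and 11 lower at the limit of 0.001. At a mean of at least 100 they had 2 higher and 9 lower. With Arabidopsis hits only, which leaves out the largest falls (XTH18, XTH22 and XTH23), they had 3 higher and 7 lower. Cellulose synthases and relatives, 5 higher and 9 lower, had 3 higher and 8 lower at a mean of at least 100. With 1 gene per hit they had 4 higher and 5 lower. Members higher at least 2-fold went from 12 to 7 at the limit of 0.001 and to 3 at a mean of at least 100. Those lower at least 2-fold went from 20 to 18 and to 14 at the same settings. The related lists together, 27 higher and 43 lower, had 17 higher and 26 lower with 1 gene per hit. These alternatives leave out genes by construction. With both means under 100, an alternative added after seeing the data, limma called 7 members lower in place of 15, as fewer members were left. Leaving out each recovered library gave 9 higher and 15 lower in every case. All 232 single-member values under the limma alternatives kept their direction and side of the threshold. In the main fit limma called 32.3% of all 3428 recovered genes higher and 67.7% lower, which left none uncalled. The genes had been chosen by the authors' test on the same libraries, so these alternatives are no independent check.

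No paired analysis was possible because the recovered libraries carry no replicate number. edgeR and DESeq2 were not run on the recovered reads, for which limma was the only tool. The floor of 1 read was not needed, since no member was at 0. For members with an autotetraploid mean above 100 the spread between autotetraploid libraries is unknown, and for 14 members that between doubled haploid libraries.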
